A study of Mus musculus with 2 samples.

Results

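The long footprints examined here are stretches of at least 20 bp that were protected from DNase I in both libraries of a mouse cortex DNase-seq study. They were chosen from the deposited footprint lists by their length and position: an autosomal footprint of replicate 1 was a member when it overlapped a footprint of replicate 2 of at least 20 bp by at least 50% of the length of each. The rule gave 13060 members, which were 6.27% of the 208264 autosomal footprints of replicate 1 and 5.95% of the 219378 of replicate 2. Counted on all chromosomes, the lists held 212785 and 224029 footprints. Among autosomal footprints of at least 20 bp the members made up 50.5% of 25849 in replicate 1 (95% Wilson interval 49.9 to 51.1) and 60.2% of 21687 in replicate 2 (59.6 to 60.9). All such intervals cover counting error only.

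The study consisted of 1 group of 2 libraries, numbered in the labels as biological replicates 1 and 2, made from left cerebral cortex. Both animals were females of the hybrid strain B6CASTF1/J at 10 days of age, with no treatment named. These animals are the first-generation cross of C57BL/6J with CAST/EiJ, so each carries a CAST/EiJ genome copy that can differ from the reference read here. The labels number the animals separately but give both the same donor identifier, and with 1 library each animal and technical variation cannot be told apart. With 2 libraries in 1 group no test over samples could be made, and shares are given in each library beside those of other sequences. The tissue is a mixture of neurons, glia and vessel cells, and no file separates them.

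DNase I cuts accessible DNA between nucleosomes, and a protein bound to its site can shield the bases beneath it, leaving a short gap in the cuts called a footprint. Most sequence-specific factors contact a short motif, while proteins with many zinc fingers, such as the loop anchor CTCF, and pairs of neighbouring factors can shield longer stretches. CTCF stops the cohesin complex as it extrudes chromatin loops, RFX factors drive genes of the primary cilium, nuclear factor I acts in glia and maturing neurons, and NRF1, SP/KLF and CREB-type factors bind promoters rich in CpG dinucleotides.

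The sequences below were read from GRCm38.p6, the assembly of mm10. They show the member in replicate 1 with 5 bp added on each side, in lower case, with the motif in capitals, on the strand on which the motif reads forward. The first set shows the core of CTCF together with a second element 5′ of it, because CTCF footprints of at least 40 bp reached farther on this side than shorter ones. The element was searched as TGCANTNCC, and the core, a 12-letter consensus with at most 1 mismatch, is given by name. The members lie nearest to Prok2 (chr6:99804407-99804453, between genes), Ces5a (chr8:93592002-93592045, intronic) and Bcl9 (chr3:97338995-97339041, between genes). The last 2, nearest to Kcnk9 (chr15:72549570-72549593) and Cdkn1c (chr7:143466495-143466526), both between genes, show the core without that element. At Kcnk9 the printed stretch starts too close to the core to hold it.
Prok2: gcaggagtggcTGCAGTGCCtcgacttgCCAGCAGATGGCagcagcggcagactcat
Ces5a: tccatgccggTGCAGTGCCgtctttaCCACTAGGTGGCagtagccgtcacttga
Bcl9: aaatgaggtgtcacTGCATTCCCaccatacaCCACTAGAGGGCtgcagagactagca
Kcnk9: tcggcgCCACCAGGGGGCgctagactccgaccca
Cdkn1c: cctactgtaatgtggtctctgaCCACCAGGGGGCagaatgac

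The second set shows palindromic sites, where the motif reads alike on both strands. RFX X-boxes, a 14-letter consensus with at most 2 mismatches, are shown from members nearest to Cdk5r1, an activator of a neuronal kinase (chr11:80504242-80504265, intronic), Cfap97d1, a protein of cilia and flagella (chr11:101984215-101984238, 52 bp upstream of its start), and Dync2li1, a dynein subunit of cilia (chr17:84626447-84626471, 37 bp upstream). Nuclear factor I palindromes, 15 letters without mismatch, are shown from Bahcc1, a chromatin protein (chr11:120232771-120232800, 161 bp upstream of its start), and from a region between genes nearest to the corepressor gene Irf2bp2 (chr8:126666636-126666663).
Cdk5r1: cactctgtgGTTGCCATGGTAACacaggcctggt
Cfap97d1: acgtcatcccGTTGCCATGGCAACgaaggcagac
Dync2li1: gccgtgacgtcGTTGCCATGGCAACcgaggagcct
Bahcc1: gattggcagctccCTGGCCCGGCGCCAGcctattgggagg
Irf2bp2: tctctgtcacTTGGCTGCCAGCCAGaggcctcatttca

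The third set shows promoter sites: the long form of the NRF1 site (12 letters, at most 1 mismatch) near Nup50, a nuclear pore gene (chr15:84923318-84923343, 80 bp upstream of its start), and Cox6a1, a subunit of cytochrome c oxidase (chr5:115349106-115349126, 135 bp upstream). The CRE (TGACGTCA) and EGR (GCGNGGGCG) sites come from members at the starts of Mxd1, a member of the MYC network (chr6:86669508-86669530, 358 bp upstream), and Peak1, a pseudokinase gene (chr9:56418179-56418205, 125 bp upstream).
Nup50: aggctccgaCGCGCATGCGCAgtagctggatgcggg
Cox6a1: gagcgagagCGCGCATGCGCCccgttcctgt
Mxd1 CRE: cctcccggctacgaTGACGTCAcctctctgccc
Peak1 EGR: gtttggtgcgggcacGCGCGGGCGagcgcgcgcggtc

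Members were mostly little longer than the rule required. Their length had a median of 27 bp in both libraries, with SDs over members of 7.04 and 6.70 bp, and reached 71 and 67 bp. In both libraries at once, 6562 members (50.2%) were at least 25 bp, 590 (4.52%) at least 40 bp and 29 (0.222%) at least 50 bp long. Since length chose the members, these values are a description. At the threshold, 756 members were 20 bp and 849 were 21 bp long in replicate 1. Of all footprints of replicate 1, 65.4% of those of 20 bp and 65.1% of those of 21 bp matched one of any length in replicate 2, against 58.4% of those of 19 bp and 60.1% of those of 18 bp. The edges of a member usually differed by a few bases between libraries: both edges lay within 2 bp in 34.6% of members and were identical in 4.63%.

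The libraries did not agree on which members were longest. Members with a CTCF core were longer in replicate 1 in 60.1% and in replicate 2 in 31.0% of cases, with medians of 29 and 27 bp. Members with the SP/KLF site went the other way, longer in replicate 2 in 62.6% and in replicate 1 in 26.3%, with medians of 24 and 27 bp. Long footprints without a long partner in the other library, some of which had a shorter one there, showed the same split in windows of 40 bp about their centre. Of the 12789 in replicate 1, 27.8% held a CTCF core and 1.52% the SP/KLF site, while of the 8627 in replicate 2, 11.0% and 8.01% did. Mean GC content was 61.3% (SD 12.1 over footprints) in the former and 69.5% (SD 12.8) in the latter. Whether base composition or depth has a part in these lengths was not tested.

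**Figure D1:**
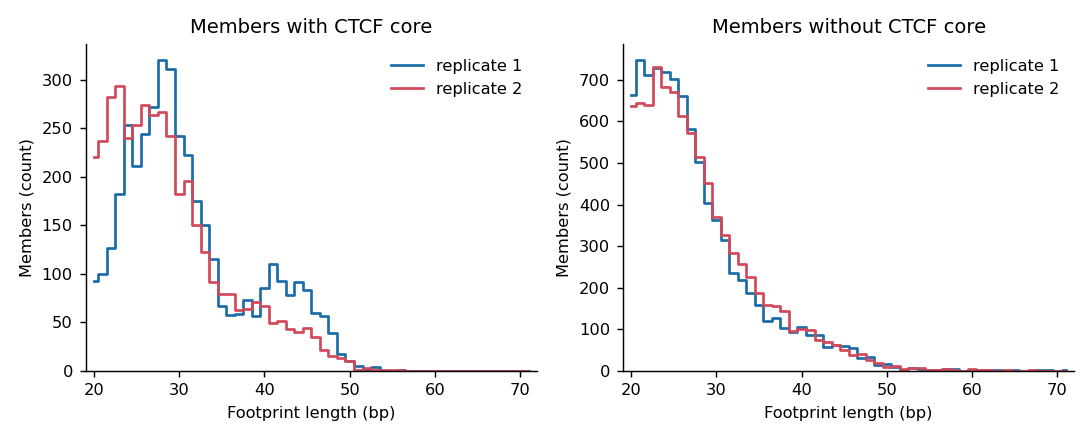
Number of members by footprint length (bp) in replicate 1 and replicate 2, for members with a CTCF core (left) and without one (right). Among CTCF members, replicate 1 has a second rise above 40 bp that replicate 2 lacks, and more CTCF members of replicate 2 lie close to 20 bp.

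The CTCF core was the motif held by the most members. It lay in 4069 members by the interval of replicate 1 (31.2%, Wilson interval 30.37 to 31.96) and in 3989 by that of replicate 2 (30.5%, 29.8 to 31.3). Windows of the same length moved 60 bp to either side held it in 0.976% (0.864 to 1.10), a ratio of 31.9. Such flanking windows were not cleared of other footprints, and neighbouring members in 1 peak had centres a median of 71 bp apart. With windows at 100 bp the ratio was 58.5; the cause was not tested. In windows of 40 bp about the centre, 31.3% of members held the core, against 5.27% (5.07 to 5.48) of the 46503 footprints under 20 bp that the libraries shared. Of the CTCF members, 44.6% matched the consensus without mismatch, and counting only these left 13.9% of all members.

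**Figure D2:**
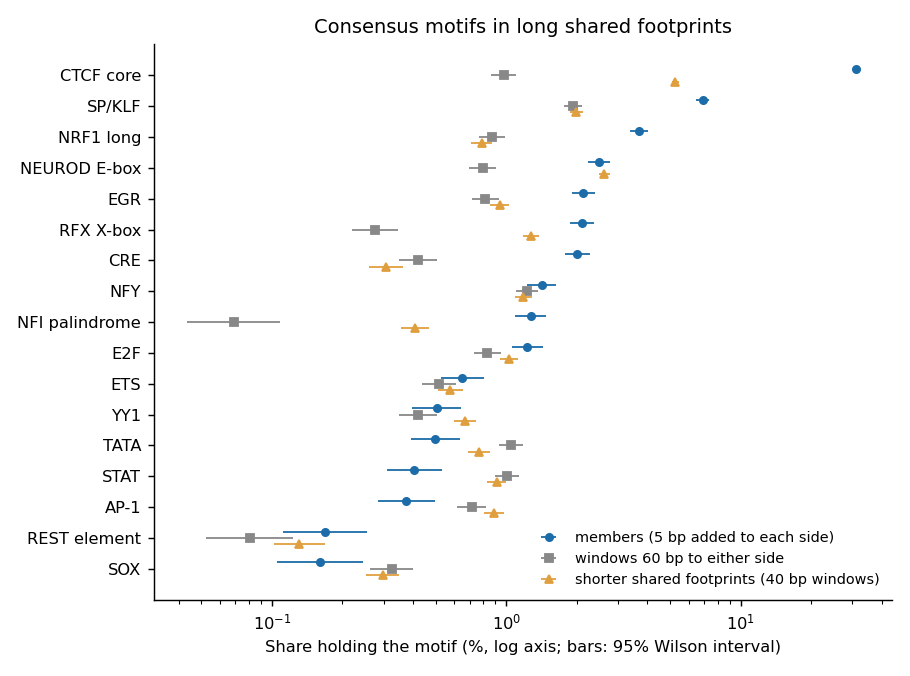
Share of members holding each motif (%, log axis) beside that of windows of equal length 60 bp away and of 40 bp windows on shorter shared footprints; bars are 95% Wilson intervals over footprints. CTCF stands at 31.2% in members, and AP-1, STAT, TATA and SOX lie below their flanking windows.

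Other motifs were each held by a small share of members. SP/KLF sites (GGGGCGGGG) lay in 901 members (6.90%, 6.48 to 7.35; flanking windows 1.92%), the long NRF1 form in 480 (3.68%; 0.869%) and the CRE in 263 (2.01%; 0.421%). RFX X-boxes lay in 274 (2.10%, 1.87 to 2.36; flanking windows 0.276%) and nuclear factor I palindromes in 166 (1.27%, 1.09 to 1.48; 0.0689%, resting on 18 windows). Among the motifs of these other factors the ratio to flanking windows was highest for nuclear factor I, at 18.4, followed by RFX at 7.61, CRE at 4.78, NRF1 at 4.23 and SP/KLF at 3.59. With windows at 100 bp these ratios were 55.3, 18.3, 8.62, 7.38 and 5.12, respectively. The order below RFX was not stable: NRF1 stood above CRE without extension (6.0 against 5.64), and SP/KLF above NRF1 with replicate 2 alone (3.45 against 2.95). For nuclear factor I the ratio was 32.4 without extension and 10.2 at a minimum of 25 bp, and for RFX 12.05 and 4.8. The EGR site, of the immediate early zinc finger factors, was in 2.14% against 0.815%.

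Compared with shorter shared footprints in equal windows of 40 bp, the CRE was in 2.03% of members against 0.308% (0.261 to 0.362), a ratio of 6.599, beside 5.94 for the CTCF core. NRF1 was in 3.64% against 0.787%, SP/KLF in 6.88% against 1.99% and nuclear factor I in 1.27% against 0.409%. The RFX X-box was closer, 2.08% against 1.28% (1.18 to 1.38). Neither palindrome was particular to members. Long footprints of replicate 1 without a long partner held the X-box in 2.24% and the nuclear factor I palindrome in 1.73% (1.52 to 1.97). Those of replicate 2 held them in 1.23% and 0.522%. The CRE was in 0.688% and 0.835% of these sets and NRF1 in 1.86% and 1.33%, below the members in both. The NEUROD E-box CAGATGG, bound by proneural factors, did not separate the sets, with 2.61% and 2.63%. Its letters also fit inside the CTCF core, and 222 of the 326 members that held it held a CTCF core as well. The half-site of nuclear factor I, TTGGCA, was less frequent in members (3.55%) than in shorter shared footprints (5.47%), whereas the full palindrome was more frequent.

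Several motifs were rarer in members than in the windows beside them. AP-1 (TGANTCA), bound by Fos and Jun, was in 0.375% (0.284 to 0.496) against 0.712%, STAT (TTCNNNGAA) in 0.406% against 1.01%, the TATA sequence (TATAAA) in 0.498% against 1.05% and SOX (CATTGTT) in 0.161% against 0.325%. The homeodomain sites POU (ATGCAAAT) and LHX/DLX (CTAATTA) were in 4 members each, 0.0306% against 0.214% and 0.191%. Members had a mean GC content of 66.4% (SD 11.9 over members) and the flanking windows 56.4% (SD 14.5), and these motifs are rich in A and T. The part of base composition in their shares was not tested. Letters searched for other motifs were CCAATCA for NFY, which was in 1.42% of members against 1.23%, CCGGAAGT for ETS (0.651% against 0.517%) and AANATGGCG for YY1 (0.505% against 0.421%), and their intervals overlapped those of the windows.

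The element of REST, which silences neuronal genes outside neurons, was almost absent from the members. With up to 4 mismatches over 21 letters it lay in 22 members (0.168%, 0.111 to 0.255) against 0.0804% of flanking windows (0.0526 to 0.123), and none of the 22 had fewer than 3 mismatches. One of the best matches lay in an exon nearest to the pituitary factor gene Pou1f1 (chr16:65531852-65531880), which is shown because it has 3 mismatches. The whole element was covered in 27.3% of the 22 in replicate 1 and 42.9% of the 21 in replicate 2.
Pou1f1: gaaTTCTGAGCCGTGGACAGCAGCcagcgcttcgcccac

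In all, 7695 members (58.9%, 58.1 to 59.8) held at least 1 of the 33 motifs searched first, and 5365 held none. The same share was not computed for flanking windows, which also held these motifs. How many of the matches are bound sites was not tested. Members without a motif were GC-rich, with a mean of 68.0%. The GC box GGGCGG, a shorter form contained in the SP/KLF site, was added after the shares had been seen; it lay in 19.2% of members and 9.34% of flanking windows. The range is shown by members that also lacked the GC box. The first lay at the start of the vesicle transport gene Rab11b (chr17:33760573-33760615, 64 bp upstream, 43 and 47 bp long). The second lay 476 bp upstream of Leprot (chr4:101647208-101647276, 69 and 67 bp long). It was the longest member by mean length and lay in no deposited peak of either library. No letters are in capitals, since no motif searched first was found. Partial matches can still be present: both sequences hold CCAAT, the first letters of the NFY motif CCAATCA, which was searched without mismatch.
Rab11b: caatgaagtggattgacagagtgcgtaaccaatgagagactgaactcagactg
Leprot: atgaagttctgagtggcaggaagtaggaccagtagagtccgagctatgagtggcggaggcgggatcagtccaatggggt

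Footprints mostly covered the CTCF core, and their upstream edges varied more than their downstream edges. The footprint covered the whole core in 97.1% of CTCF members in replicate 1 and 92.1% in replicate 2. A core was counted only within the footprint extended by 5 bp, and members had at least 20 bp. High cover is thus largely set by the rule and the search. Shorter shared footprints with a core covered it whole in 29.4% in replicate 1. From the core to the footprint's edge, the median distance upstream was 6 bp in both libraries (quartiles 5 and 14 bp in replicate 1, 4 and 12 bp in replicate 2). Downstream it was 10 bp (7 to 12) and 9 bp (5 to 12). Upstream edges lay 4 to 6 bp from the core in 48.8% in replicate 1 and 35.7% in replicate 2. A further 17.4% and 9.90% lay 20 to 24 bp away, and 4.10% and 10.6% lay 10 to 13 bp away. The far group thus stood apart in replicate 1, whereas in replicate 2 the edges between were as frequent. Downstream edges had no such far group, with 0.393% and 0.326% at 20 to 24 bp.

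**Figure D3:**
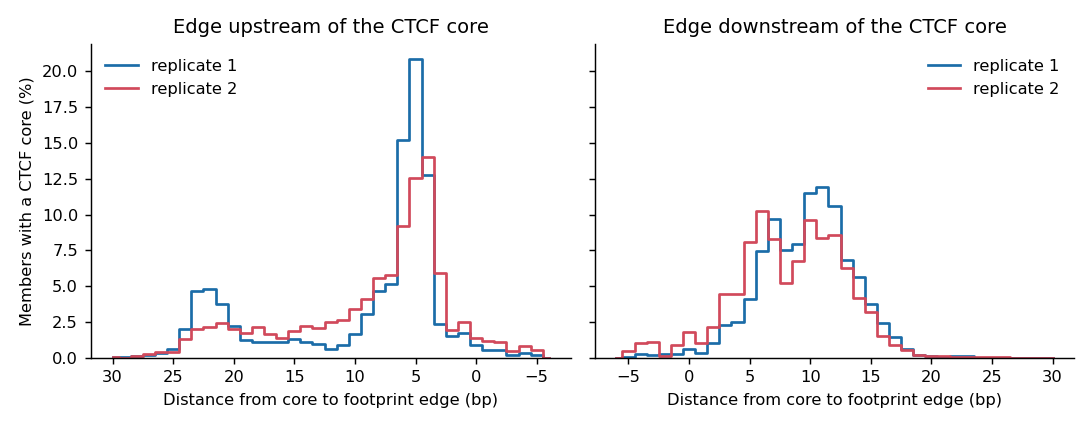
Distance (bp) from the CTCF core to the footprint's edge, upstream (left, axis reversed) and downstream (right), as % of members with a CTCF core in each library; negative values are edges inside the core. Both libraries show an upstream peak near 5 bp; replicate 1 has a second group beyond 20 bp, replicate 2 a broad spread up to there, and the downstream side has no group beyond 20 bp.

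Long CTCF members were long on 1 side. In replicate 1, the 735 CTCF members of at least 40 bp reached a median of 22 bp upstream of the core (SD 2.95 over members), and the 3334 shorter ones reached 5 bp (SD 4.58). Downstream the median was 10 bp in both. Total length fixes the sum of both distances but not the side on which it falls. The share of members with a CTCF core was 13.1% (11.8 to 14.5) at 20 to 22 bp and 53.7% (50.3 to 57.0) at 40 to 44 bp in replicate 1, and 26.6% (24.97 to 28.33) and 39.0% (35.3 to 42.8) in replicate 2.

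CTCF members with the second sequence element reached farther upstream, though most CTCF members of at least 40 bp lacked it. The element lay in the 40 bp before the core in 143 CTCF members and in the 40 bp after the core in 12. In 114 of the 143, 8 bp separated it from the core, as in the Prok2 sequence above. It stood 4 to 12 bp before the core in 11.2% (9.08 to 13.6) of CTCF members of at least 40 bp and in 1.47% (1.11 to 1.94) of shorter ones. The 131 members with the element so placed had median lengths of 41 and 33 bp in replicates 1 and 2, and those without it 29 and 27 bp. Their upstream reach was 22 bp in replicate 1 and 19 bp in replicate 2, against 6 bp in both for the rest. The other CTCF members of at least 40 bp had no match to these letters at that distance.

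A CG dinucleotide often spanned the end of the core. The last base of the core was followed by G, forming a CG dinucleotide, in 42.2% of the 4069 CTCF members. Of them, 62.1% held any CG within the footprint, compared with 82.7% of members without the core. CTCF cores read forward on the reference strand in 48.8%. Along the chromosomes, neighbouring CTCF members had a median distance of 237350 bp and lay on the same strand in 47.0%, facing each other in 26.5% and facing away in 26.6%. Only 45 of the 4050 neighbouring pairs were within 1 kb.

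The palindromic sites were mostly covered whole. They read alike on both strands, so their sides are those of the reference strand and cannot show an asymmetry. For the nuclear factor I palindrome the edges lay at medians of 5 and 6 bp in replicate 1 and 4 and 5 bp in replicate 2, and 97.6% and 92.7% of the footprints covered it whole. For the RFX X-box they lay at 4 and 5 bp and at 4 and 6 bp, with 92.0% and 84.6% covering it. As for CTCF, the length rule and the search within 5 bp favour whole cover. Shorter shared footprints of replicate 1 covered the nuclear factor I palindrome whole in 26.8% and the X-box in 18.1%. For NRF1 the edges of members lay at 6 and 7 bp and at 7 and 7 bp. ZNF143, a promoter zinc finger whose site has 19 letters, had other median edges. In its 55 members in replicate 1 they were -1 bp upstream, inside the site, and 10 bp downstream. In its 37 in replicate 2 they were 1 and 9 bp. The site was in 0.421% of members (0.324 to 0.548) against 0.291% of flanking windows (0.233 to 0.364), and in 0.283% by replicate 2 intervals. How many of these matches are bound sites was not tested. A site without mismatch is shown from the member 43 bp upstream of Jarid2, a developmental chromatin regulator (chr13:44730715-44730746). Its footprint extended past the site on both sides, so it is not an example of the median edges.
Jarid2: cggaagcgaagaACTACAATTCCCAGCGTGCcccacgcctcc

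Among CTCF members with an exact core, the 3 of highest mean peak signal shared sequence with each other. They stood at chr8:20122177-20122220, chr8:20424864-20424887 and chr8:19784531-19784579, near annotated start sites but at least 54979 bp from a coding one, and had a run of 32 identical bases in common. Whether reads from such similar sites were assigned to the right one was not tested. Across the set, 158 members (1.21%) shared at least 24 bases with another member, and without them the CTCF share was 31.1%. By the soft-masking of the reference, 7.32% of members lay mostly in repeats, against 7.76% of flanking windows.

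Gene starts were the most frequent place of members. Of the 13060, 52.5% (51.6 to 53.3) had their centre at most 1 kb from a start site of any annotated transcript, 2.99% were in other exons, 20.8% in introns and 23.8% between genes. Shorter shared footprints were at start sites in 44.7% (44.3 to 45.2). Long footprints without a long partner were there in 34.0% in replicate 1 and in 61.1% in replicate 2, so the members lay between them. CTCF divided the members: with a core, 16.8% (15.72 to 18.02) were at start sites and 41.9% between genes, and without one, 68.6% (67.6 to 69.6) and 15.5%. The median distance to the nearest start site was 6835 bp with a core and 130 bp without.

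Around coding genes the members lay mostly upstream of the start. Of the 6390 within 1 kb of a coding start, 79.2% (78.2 to 80.2) were upstream, with a median position of -50 bp. Shorter shared footprints were upstream in 67.1% (66.4 to 67.7) of cases, with a median of -34 bp. The median varied between promoter motifs, with quartiles that overlapped widely. Members with the ETS site had a median of -11 bp, CRE -28 bp, long NRF1 -28.5 bp, SP/KLF -49 bp and NFY -60 bp. At start sites of any gene lay 97.6% of the 85 ETS members, 94.6% of NRF1, 94.2% of SP/KLF, 92.7% of ZNF143 and 90.1% of CRE members. RFX members were at start sites in 38.3% and those with the nuclear factor I palindrome in 25.9%.

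**Figure D4:**
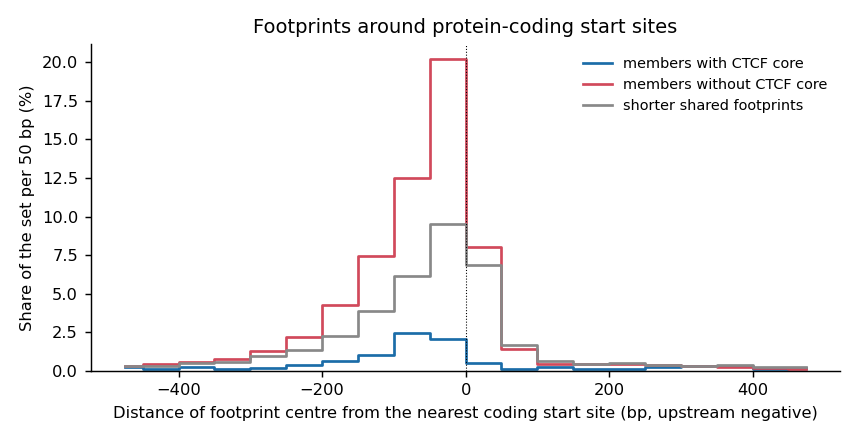
Share of each set (% per 50 bp) by distance of the footprint's centre from the nearest protein-coding start site (bp, upstream negative). Members without a CTCF core rise just upstream of the start, shorter shared footprints less so, and members with a CTCF core have few there.

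Some promoters held several members. Of the 10600 peaks of replicate 1 with a member, 85.6% held 1, 11.4% held 2, 2.42% held 3 and 0.528% held 4 or more. The most was 7, in a peak whose nearest coding gene was Hnrnpul1, which encodes an RNA-binding protein. Neighbours in 1 peak had centres a median of 71 bp apart (quartiles 61 and 89.6 bp). Peaks with 1 member held a CTCF core member in 41.2% and lay near a start site in 39.97%. For peaks with 3 or more these shares were 7.37% and 93.6%.

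Members lay in strong peaks. Of them, 95.7% were inside a peak of the stricter of the 2 lists of replicate 1 and 96.5% of replicate 2. Among 49590 autosomal peaks of replicate 1 that overlapped one of replicate 2, 10556 (21.3%) held a member. Their median signal, the authors' value per peak, was 1.86 in replicate 1 and 2.58 in replicate 2, against 0.816 and 1.02 in shared peaks without one. Peak signal and footprint calls use the same cuts, so this relation is a description. A higher signal can mean more cells with the region open or more cuts per cell, and these cannot be told apart in tissue.

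The share of peaks with a member rose from 0.242% in the lowest decile of shared peaks by signal to 66.3% in the highest. The share with a CTCF member was 21.1% in decile 8 and 5.28% in the highest. Peaks with CTCF members had a median signal of 1.40 in replicate 1 and 1.87 in replicate 2, and peaks whose members lacked the core 2.52 and 3.79. The strongest peak with members, at 16.6 and 24.8, held one of 22 bp in both libraries at the start of the centromere chaperone gene Hjurp (chr1:88277526-88277547) and another, of 25 and 28 bp, near the start of the cold receptor gene Trpm8 (chr1:88277696-88277720).

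**Figure D5:**
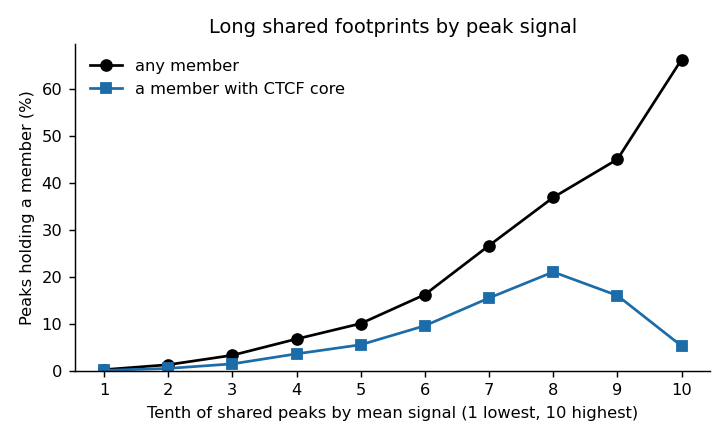
Share of shared peaks (%) that hold any member or a member with a CTCF core, by decile of mean signal over the 2 libraries (1 lowest, 10 highest). The share with any member climbs to 66.3% in decile 10, while the share with a CTCF member is highest in decile 8 at 21.1%.

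Between the libraries, the signal of peaks with members was mostly higher in replicate 2, in 95.2% against 82.2% of peaks without one. The signal was more than 2-fold higher in replicate 2 at 284 of the 10556 (2.69%, 2.40 to 3.02), beside 2.57% of all shared peaks, and more than 2-fold higher in replicate 1 at none, beside 0.0403%. The share over 2-fold higher in replicate 2 was 1.26% (0.951 to 1.66) for peaks with CTCF members and 3.53% (3.11 to 4.00) for those whose members lacked the core. The median log2 ratio of replicate 2 to replicate 1 was 0.49 (SD 0.28 over peaks) with members and 0.33 (SD 0.36) without, on the authors' scale. Among members, the ratio favoured replicate 2 most at the start of the cilium assembly gene Cplane1 (chr15:8169018-8169052), with 1.49 in replicate 1 and 4.26 in replicate 2. It favoured replicate 1 most in an intron nearest to Uchl5, a deubiquitinating enzyme (chr1:143803722-143803753), with 1.38 and 0.773.

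Each member was assigned to the nearest coding start, which made 37.6% of 20780 coding genes the nearest of a member, and 21.6% had one within 1 kb of a start site. Among 30 cilia genes, listed as targets of RFX factors, 21 had a member and 18 had one at a start site. Dync2li1, Ift57 and Bbs7, which build or load the cilium, held an RFX X-box in theirs, 37, 21 and 26 bp upstream. These were 3 of the 32 members nearest to cilia genes, beside 2.10% of all members. The Bbs7 member lay in no deposited peak of replicate 1. Of 29 nuclear genes for mitochondrial respiration, listed as targets of NRF1, 18 had a member and 14 had one at a start. Cox6a1 and Uqcrc1, a subunit of complex III, held the long NRF1 form, in 2 of 33 members beside 3.68% of all. The Cox6a1 member also lay in no deposited peak of replicate 1. Of 30 ribosomal protein genes, 18 had a member and 16 had one at a start, with the SP/KLF site in 1 of the 28 members, at Rps13, beside 6.90% of all. Genes for the factors of the searched motifs had the highest share, 24 of 29, with 16 at a start.

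Genes that mark cell types had members at their starts about as often as all coding genes, or too few genes to tell. Of all coding genes, 37.6% had a member and 21.6% had one at a start. Of 14 pan-neuronal genes 8 had a member and 3 had one at a start, among them the adhesion gene Ncam1 (chr9:49798955-49798975, signal 3.41 and 5.31). In Rbfox3, a splicing factor gene whose product is stained as NeuN, the member with the strongest peak was intronic and held a CTCF core (chr11:118739056-118739081, 2.01 and 2.92). Of 12 astrocyte genes 7 had a member and 2 had one at a start, with the glutamine synthetase gene Glul at 4.37 and 5.47. Of 11 oligodendrocyte lineage genes 3 had one (Cspg4, Mbp and Olig2), of 12 microglia genes 2 (Spi1 and Trem2) and of 12 vascular genes 7, none of them at a start. For 0 of 12 the Wilson interval reaches 24.2%, which includes the share of all genes.

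The counts of this paragraph stand beside 37.6% of all coding genes with a member and 21.6% with one at a start. Of 12 activity-regulated genes, 9 had a member and 6 had one at a start. None of the 26 members nearest to them held a CRE or the CArG site of SRF. Of all members 2.01% and 0.115% held these, so that 26 are too few to tell. The highest mean signals over both libraries there were at members nearest to Fos (chr12:85455259-85455278, 18621 bp upstream, 4.73 and 6.67) and Npas4 (chr19:5001956-5001978, 11651 bp upstream, 4.12 and 6.23). The Npas4 member held an RFX X-box. Of 30 genes known as targets of REST in other cells, 15 had a member and 4 had one at a start, and none of their 24 members held the REST element, which was in 0.168% of all.

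Of 24 imprinted genes, expressed from 1 parental copy, 13 had a member and 4 had one at a start, beside 37.6% and 21.6% of all coding genes. Of their 27 members 7 held a CTCF core, beside 31.2% of all members, and these were nearest to Cdkn1c, Gnas, Inpp5f, Kcnk9, Rasgrf1 and Trappc9. The member nearest to Rasgrf1 (chr9:89827188-89827226, 39 and 38 bp long) had a signal of 1.78 and 2.30. The one nearest to Trappc9 (chr15:73069018-73069060, 43 and 42 bp) had 1.85 and 2.26. Which parental copy carried the footprint was not analysed here.

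The genes nearest to the most members were Ptma, which encodes prothymosin alpha, with 11, and Camta1 and Chd2, a transcription activator and a chromatin remodeler, with 10 each. A further 6 genes had 9 each: Cic, Diaph1, Irf2bpl, Rab11fip4, Rgs3 and Zfp516. All 9 members of the repressor gene Cic were within 1 kb of a coding start and none held a CTCF core, while Rab11fip4 had none within 1 kb and 4 with a core. Per Mb, members were densest on chromosome 11 (9.08) and sparsest on chromosome 14 (3.79).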

How the data were processed

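DNase-seq was made from the left cerebral cortex of 2 female mice. Per the descriptions deposited with each library, peaks and footprints were called on mm10 from that library's own alignments, without pooling. Callers, versions and the signal's scale are not given in the sources used here. Every footprint was deposited with a p-value of 0.01, which gives no order among them. The peak signal, as deposited, was scaled by library in whole multiples of 0.00692 in replicate 1 and 0.00758 in replicate 2. Depth per footprint is unknown.

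With Python 3.11.15 (numpy 2.4.6, pandas 2.3.3), footprints were matched between libraries, and motifs were searched on both strands of GRCm38.p6 in footprints extended by 5 bp. Start sites came from GENCODE M21 (1 kb window). For each peak of replicate 1, the replicate 2 value was that of the overlapping peak with the most signal. Intervals are 95% Wilson intervals. Matching and motif search were tested on simulated data. The 33 motifs, 12 gene lists and members were chosen with earlier results of these data known, and 3 motifs (the GC box and the half-sites GTTGCCA of RFX and TTGGCA of nuclear factor I) were added later. Some sequences, including all in UTRs, are not printed. Named members were the 10 longest, the 10 of highest signal, for each long motif the 3 with the fewest mismatches, for each gene list the 3 of highest signal, the 2 widest signal gaps each way and the 5 genes with the most members, with ties; other names were chosen after their values were seen. The deposited list of cut rates per position was not used. Alternatives were other lengths, overlaps, extensions, mismatches, windows, peak lists and each library alone.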

Additional observations from a re-analysis of the deposited data

How the results depend on the processing

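No paired analysis was possible because the study has 1 group of 2 libraries and nothing to pair. Direction under the alternatives was checked for motif ratios and the signal ratio only. The CTCF core, nuclear factor I, RFX, NRF1, SP/KLF and CRE motifs stayed more frequent in footprints than in flanking windows. The median signal stayed higher in replicate 2. The 13060 members became 6562 at a minimum of 25 bp and 8669 at a reciprocal overlap of 80%. The CTCF core share of 31.2% was 37.4% at 25 bp, 28.6% at 18 bp, 28.7% at 80% overlap, 30.3% without extension and 13.9% with 1 fewer mismatch. With the long footprints of 1 library alone it was 22.4% to 29.3%. Its ratio to flanking windows, 31.9, was 47.0 without extension, 25.97 with 10 bp, 58.5 with windows at 100 bp, 63.7 with 1 fewer mismatch and 27.7 at 80% overlap, and 23.7 to 29.1 with 1 library alone. The median upstream reach at CTCF was 7 bp at a minimum of 25 bp. The median log2 signal ratio, 0.49 to 2 decimals, was also 0.49 at 18 bp, 0.50 at 80% overlap, 0.36 in steps of each library and 0.41 to 0.52 with 1 library alone. The share at start sites was 50.8% at 25 bp, 54.3% at 80% overlap, 48.3% within 500 bp, 57.7% within 2 kb and 43.3% to 55.9% with 1 library alone. The 43.3%, from replicate 1 alone, was below the 44.7% of shorter shared footprints, which the members exceeded. Of 238 listed genes, 139 were nearest to a member and 81 had one within 1 kb of a start site, a count added after seeing the data. The cause of these shifts was not tested. With 2 libraries, no spread between animals could be estimated, and no depth per footprint was used.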
